A study of Mus musculus with 6 samples.

Results

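The data described here are the levels and changes of 9 genes for transcription factors that shape the identity of group 3 innate lymphoid cells (ILC3s): Id2, Tcf7, Tox, Tox2, Runx1, Runx3, Zbtb16, Maf and Nfil3. They were chosen by name, as the rows of a deposited gene count table whose mouse Ensembl identifier carries one of these symbols. All 9 were found among 55401 identifiers, and all 9 were among the 18253 genes with enough counts to be tested. The libraries came from wild-type mice, 3 labelled PEox and 3 labelled vehicle, and their cell type was labelled ILC3s of the small-intestinal lamina propria. The labels do not spell out PEox and give neither its dose nor its time. The labels' protocol speaks of pups and of a sort for EpCAM+CD45- intestinal epithelial cells, which is another cell than the one the cell type label names. They do not say whether the 3 libraries of a group came from separate animals, so the p-values below rest on a spread from library to library that may be technical only. The series title places the experiment in a study of neonatal necrotizing enterocolitis and of ILC3 dysfunction that follows epithelial injury, and the comparison asks how PEox-treated ILC3s differ from vehicle-treated ones.

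ILC3s are tissue lymphocytes without rearranged antigen receptors that answer interleukin-23 and interleukin-1 with interleukin-22, a cytokine that protects the gut epithelium. In mice they arise from precursors in which Nfil3, Id2, Tcf7, Tox and, in part of the lineage, Zbtb16 act. Id2 blocks the E proteins, which would otherwise support T and B cell fates. Tcf7 and Tox are HMG-box factors needed for early innate lymphoid precursors, Runx3 with its partner Cbfb supports mature ILC1s and ILC3s, and Maf shapes the balance between ILC3 subsets.

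The libraries held 56252806 to 57532484 counts in the PEox group and 59524577 to 66849230 counts in the vehicle group. Levels are given as CPM, counts scaled to a common library total after TMM normalization, with the SD over the 3 libraries of a group. Across all tested genes, 37.1% passed an adjusted p of 0.05 between the groups, with 18.3% higher and 18.8% lower in PEox. Every count of called genes in a list below is to be read against these shares. The 15 marker genes of ILC3s summed to 6987 to 7129.6 CPM in PEox libraries and 13703 to 13858 CPM in vehicle libraries, and none of the 15 was at 0 in either group. Of the 15, 3 were higher and 9 lower in PEox, and the 3 not called were Il23r, Il7r and Il1r1. Il22 alone was at 2513 CPM in PEox and 6724 CPM in vehicle, so the difference between the sums is not shared evenly. The 3 higher markers, named after their values were seen, were Kit (log2 fold change 0.91), Il17f (0.75) and Tnfsf11 (0.57). The 12 epithelial markers summed to 74.7 to 76.3 CPM in PEox libraries and 106 to 120.1 CPM in vehicle libraries, with Fabp1 and Fabp2, fatty acid binding proteins of enterocytes, at 0 in the PEox libraries. By these levels the libraries follow the cell type label and not the epithelial sort named in the protocol. These are bulk libraries, in which fewer cells of a type and less RNA per cell cannot be told apart.

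Of the 9 factors, 2 rose in PEox (Tcf7 and Tox), 5 fell (Id2, Tox2, Runx1, Runx3 and Nfil3) and 2 did not pass the test (Maf and Zbtb16). The called share of the 9, 7 genes, is set against 37.1% of all tested genes and against 55.5% of the 10599 genes that average 5 CPM or more, as all 9 do. Because the 9 were chosen with earlier results of these data known, this comparison cannot show that they are unusual. The PEox and vehicle ranges did not overlap for 8 of the 9, 2 of them higher and 6 lower in PEox. Among all tested genes 50.6% had ranges that did not overlap, 24.1% higher and 26.5% lower in PEox. The median log2 fold change, PEox over vehicle, was -0.26 over the 9 factors and 0.00 over all 18253 tested genes. With scaling by library size alone, 2 of the 9 were called higher and 2 lower, and the median of all tested genes moved to 0.14.

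**Figure D1:**
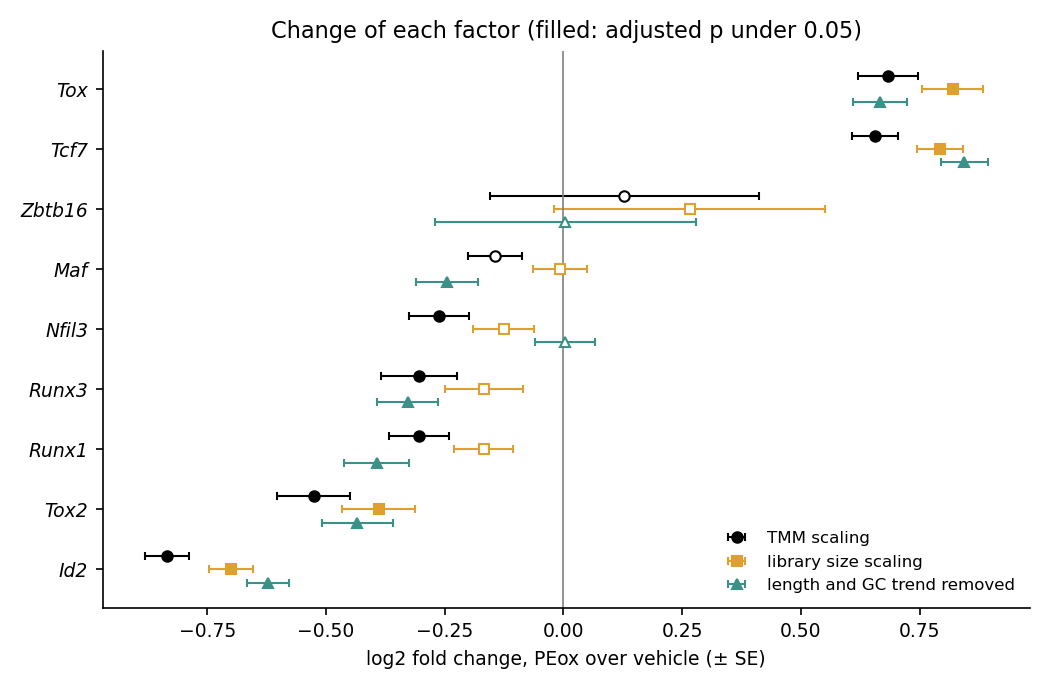
Log2 fold change of each of the 9 factors, PEox over vehicle, from the fit across all tested genes with TMM scaling (circles), library size scaling (squares) and the length and GC trend removed (triangles); bars are the standard error and filled symbols have an adjusted p under 0.05. With TMM scaling, Tox (0.68) and Tcf7 (0.66) lie to the right of 0, Id2 (-0.84) lies farthest to the left, and the bar of Zbtb16 (0.13, SE 0.28) crosses 0.

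Id2 fell most of the 9 and was the most abundant of them. It lacks a DNA-binding domain and pairs with E proteins so that they cannot bind DNA. Id2 was at 1723, 1701 and 1627 CPM in the 3 PEox libraries, against 2827, 3049 and 3135 CPM in the 3 vehicle libraries. Every PEox library lay below every vehicle library, with group means of 1684 ± 50.1 CPM in PEox and 3004 ± 159 CPM in vehicle (SD, n = 3 each). The log2 fold change was -0.84 ± 0.05 (SE, as after every fold change below), with an adjusted p of 7.54e-06 in edgeR's quasi-likelihood test.

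Among the Id proteins and E proteins, 2 of the 8 tested members were higher, 3 were lower and 3 were not called. Over all tested genes the shares were 18.3% higher and 18.8% lower. The median log2 fold change of the 8 was 0.03. Id3, the Id protein most studied beside Id2 in lymphocytes, fell to 16.2 ± 2.38 CPM in PEox, against 31.8 ± 1.5 CPM in vehicle (log2 fold change -0.98 ± 0.13, adjusted p = 0.000585). Of the E proteins that Id2 binds, none passed the test as lower. Tcf12 (HEB) rose to 66.8 ± 7.48 CPM in PEox, against 46.8 ± 1.97 CPM in vehicle (0.51 ± 0.10, adjusted p = 0.0037). Tcf4 (E2-2) was at 73.1 ± 6.47 CPM in PEox and 62.6 ± 3.42 CPM in vehicle (0.22 ± 0.09, adjusted p = 0.0786), a difference that passed the threshold with library size scaling (0.36, adjusted p = 0.011) and without PEox library 1. Tcf3 (E2A) was at 77.3 ± 12.1 CPM in PEox and 82.2 ± 7.39 CPM in vehicle (-0.09 ± 0.12, adjusted p = 0.633), and its sign turned with library size scaling. The low genes Lyl1 (0.19 CPM in PEox and 3.60 CPM in vehicle, adjusted p = 0.033) and Id4 (1.79 CPM in PEox and 0.61 CPM in vehicle, adjusted p = 0.037) passed in opposite directions, Lyl1 lower and Id4 higher. The call of Lyl1 was lost without any 1 of the vehicle libraries, and that of Id4 under several settings.

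A ratio of counts within a library does not depend on the scaling. The ratio of Id2 counts to the summed counts of Tcf3, Tcf4 and Tcf12 was 8.69, 7.62 and 7.07 in the PEox libraries, against 13.8, 16.2 and 17.3 in the vehicle libraries. The groups did not overlap. On the log2 scale the ratio averaged 2.96 ± 0.15 in PEox and 3.97 ± 0.17 in vehicle (SD, n = 3 each), a difference of -1.01. An exact two-sided permutation test gave p = 0.1, the smallest p that 3 libraries against 3 can give. With the groups apart, this p could take no other value and adds nothing to the ranges.

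**Figure D2:**
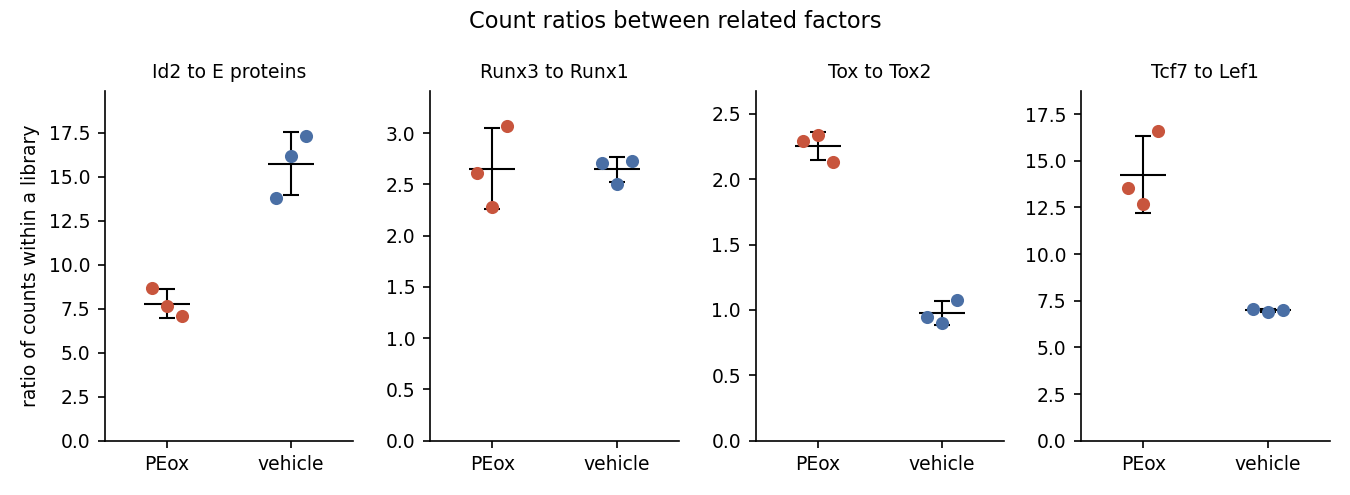
Ratio of counts between related factors within each library, on linear axes that start at 0, with PEox left of vehicle; points are libraries, horizontal lines are means and bars are SD. The PEox and vehicle points are apart for Id2 to E proteins (7.07 to 8.69 in PEox, 13.8 to 17.3 in vehicle), Tox to Tox2 and Tcf7 to Lef1, and they overlap for Runx3 to Runx1.

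Tcf7 encodes TCF-1, an HMG-box factor that binds DNA beside beta-catenin in Wnt signalling and is needed for innate lymphoid precursors in mice. Tcf7 was at 328, 302 and 307 CPM in the PEox libraries, against 201, 195 and 199.9 CPM in the vehicle libraries. All PEox libraries were above all vehicle libraries. The means were 313 ± 14.0 CPM in PEox and 198 ± 3.33 CPM in vehicle (SD, n = 3 each), which is a log2 fold change of 0.66 ± 0.05 with an adjusted p of 3.03e-05.

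Of the 14 tested TCF/LEF factors and cofactors, 7 were higher, Tcf7 among them, and 0 were lower (18.3% and 18.8% over all tested genes). Without Tcf7, 6 of 13 were higher and 0 lower. The median log2 fold change of the 14 was 0.65. Ctnnb1, which encodes beta-catenin, rose to 385 ± 17.9 CPM in PEox, against 159 ± 11.2 CPM in vehicle (1.28 ± 0.06, adjusted p = 4.72e-06). Tle4, a Groucho-type corepressor of TCF factors, rose to 66.0 ± 3.15 CPM in PEox, against 33.1 ± 3.59 CPM in vehicle (0.998 ± 0.10, adjusted p = 0.000126). Pygo2, a coactivator of the beta-catenin complex, rose as well (0.65 ± 0.10, adjusted p = 0.00136), as did the much lower Tcf7l2, which was at 7.10 CPM in PEox and 1.60 CPM in vehicle (2.15 ± 0.42, adjusted p = 0.00418). Lef1, the closest relative of Tcf7 in lymphocytes, was at 22.2 ± 3.20 CPM in PEox and 28.4 ± 0.18 CPM in vehicle (-0.35 ± 0.13, adjusted p = 0.059) and did not pass, but it was called lower by DESeq2, by limma-voom and with a filter of 5 CPM in 3 libraries. The ratio of Tcf7 to Lef1 counts was 13.5, 12.7 and 16.6 in PEox libraries, against 7.04, 6.91 and 7.03 in vehicle libraries. The log2 difference was 1.02 (exact permutation p = 0.1). Since all PEox libraries were above all vehicle libraries for Tcf7 and below them for Lef1, this p was fixed beforehand.

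Tox and Tox2, relatives with a similar HMG box, moved in opposite directions. Tox, which mouse lymphoid tissue inducer and natural killer cells need for their development, was at 169, 183 and 185 CPM in the PEox libraries, against 108, 108 and 118 CPM in the vehicle libraries. Tox2, studied mainly in natural killer and follicular helper T cells, was at 73.6, 78.2 and 86.9 CPM in PEox libraries, against 115, 119 and 109.5 CPM in vehicle libraries. Neither gene's ranges overlapped: Tox was higher in all PEox libraries and Tox2 lower in all of them.

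Tox averaged 179 ± 8.96 CPM in PEox and 111 ± 5.72 CPM in vehicle (SD, n = 3 each), with a log2 fold change of 0.68 ± 0.06 and an adjusted p of 8.57e-05. Tox2 averaged 79.6 ± 6.73 CPM in PEox and 115 ± 4.98 CPM in vehicle (SD, n = 3 each), with a log2 fold change of -0.53 ± 0.08 and an adjusted p of 0.000935. Tox4, a broadly expressed member of the family, rose with Tox, to 151 ± 11.3 CPM in PEox, against 102 ± 5.09 CPM in vehicle (0.56 ± 0.07, adjusted p = 0.000499), and Tox3 was too low to be tested. The ratio of Tox to Tox2 counts was 2.29, 2.34 and 2.13 in PEox libraries, against 0.946, 0.903 and 1.08 in vehicle libraries. This is a log2 difference of 1.21, with p = 0.1 in the exact permutation test. As Tox was higher and Tox2 lower in all PEox libraries, that p was fixed beforehand and adds nothing to the ranges above.

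**Figure D3:**
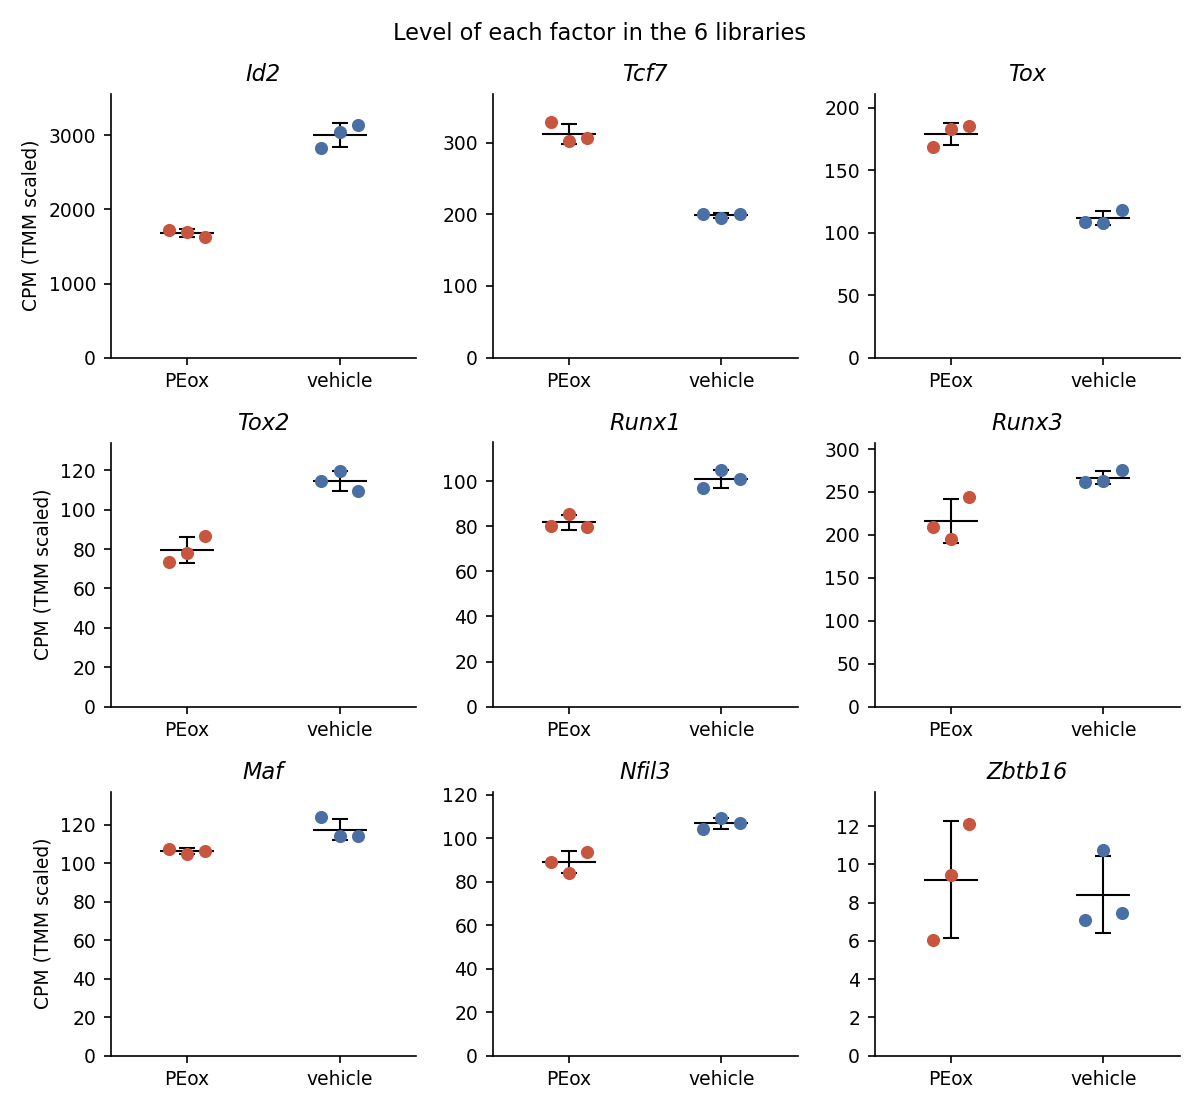
CPM (TMM scaled) of each of the 9 factors in the 6 libraries, with PEox left of vehicle in each panel and axes that start at 0; points are libraries, horizontal lines are means and bars are SD. The groups are apart for 8 factors, Maf included, and overlap for Zbtb16 (6.05 to 12.1 CPM in PEox, 7.08 to 10.8 CPM in vehicle).

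Runx1 and Runx3 are DNA-binding subunits of the core binding factor, whose partner Cbfb strengthens their binding. Each is transcribed from more than 1 promoter, and the outermost promoters of both genes carry the same pair of Runx motifs, so they are shown here, as RefSeq gives them for GRCm38.p6, 250 bases before to 50 after the start and read along the gene. Capitals mark ACCACA, the reverse complement of the Runx motif TGTGGT. The Runx1 window is chr16:92826025-92826324 on the minus strand and the Runx3 window is chr4:135120395-135120694 on the plus strand.
Runx1 outermost promoter: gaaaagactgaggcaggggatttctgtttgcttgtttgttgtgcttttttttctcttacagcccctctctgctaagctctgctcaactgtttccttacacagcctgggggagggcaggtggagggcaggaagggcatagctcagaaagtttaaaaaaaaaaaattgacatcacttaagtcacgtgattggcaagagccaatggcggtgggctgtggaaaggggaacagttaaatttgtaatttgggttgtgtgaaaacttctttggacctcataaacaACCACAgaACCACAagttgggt
Runx3 outermost promoter: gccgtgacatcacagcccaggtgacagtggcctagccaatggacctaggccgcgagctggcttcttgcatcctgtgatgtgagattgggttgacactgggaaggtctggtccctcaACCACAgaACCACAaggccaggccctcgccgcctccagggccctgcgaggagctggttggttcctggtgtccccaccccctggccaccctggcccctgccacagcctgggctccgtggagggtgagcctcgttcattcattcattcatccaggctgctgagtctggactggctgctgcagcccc

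The matches begin 29 and 37 bases after the start in Runx1, and 134 and 126 bases before it in Runx3. Both lie in a shared run of 18 bases, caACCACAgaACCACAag, which occurs in 4 of 32817 mouse promoters of this length: those of Runx1, Runx2, Runx3 and the predicted gene Gm16225. A match to TGTGGT on either strand occurred in 16.8% of the promoters, and 1.81% held more than 1. The inner promoters of Runx1 and Runx3 held no match. The table counts whole genes, so the values below do not separate transcripts by their start. RefSeq promoters were matched for 6 of the 9 factors, and 7 of their 13 promoters held the E box CAGNTG, which occurred in 51.4% of all promoters.

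Runx1, which haematopoietic cells need from their origin on, was at 80.1, 85.5 and 79.6 CPM in PEox libraries, against 96.7, 105 and 101 CPM in vehicle libraries. Runx3, the Runx factor of mature innate lymphocytes and cytotoxic T cells, was at 209, 195 and 244 CPM in PEox libraries, against 262, 263 and 275 CPM in vehicle libraries. All PEox libraries lay below all vehicle libraries for both genes, with PEox library 3 of Runx3 closest to the vehicle range.

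Runx1 averaged 81.7 ± 3.27 CPM in PEox and 101 ± 4.17 CPM in vehicle (SD, n = 3 each), which is a log2 fold change of -0.30 ± 0.06 with an adjusted p of 0.00591. Runx3 averaged 216 ± 25.1 CPM in PEox and 267 ± 7.48 CPM in vehicle (SD, n = 3 each), which is also a log2 fold change of -0.30 ± 0.08 with an adjusted p of 0.0182. Scaling by library size ended both calls, at -0.17 for each gene, with an adjusted p of 0.0678 for Runx1 and 0.155 for Runx3. The Runx3 call was also lost without PEox library 1 (adjusted p = 0.0519) or without vehicle library 1, 2 or 3 (adjusted p = 0.0549, 0.0599 and 0.0647).

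The proportion of Runx3 to Runx1 did not separate the groups. It was 2.61, 2.28 and 3.07 in PEox libraries and 2.71, 2.50 and 2.73 in vehicle libraries, or 1.40 ± 0.21 in PEox and 1.40 ± 0.07 in vehicle on the log2 scale (SD, n = 3 each; exact permutation p = 1). In the whole family of 7 tested genes, 2 were higher and 2 lower (18.3% and 18.8% over all tested genes), with a median of -0.30. Library size scaling gave 2 higher and 0 lower, and removal of the length and GC trend gave 2 higher and 4 lower. Cbfb was at 83.6 ± 8.0 CPM in PEox and 64.3 ± 7.31 CPM in vehicle and was called higher (0.38 ± 0.11, adjusted p = 0.0229), a call lost without PEox library 2 or vehicle library 1 or 2. Cbfa2t2, a corepressor of the ETO family, rose to 72.4 ± 11.4 CPM in PEox, against 33.02 ± 2.2 CPM in vehicle (1.13 ± 0.12, adjusted p = 0.000222). Its relative Cbfa2t3 was at 0.96 CPM in PEox and 2.29 CPM in vehicle (-1.25 ± 0.45, adjusted p = 0.0607) and was called lower by DESeq2 and limma-voom, without PEox library 2 and after removal of the length and GC trend. Runx2, better known from bone, was at 23.1 ± 5.43 CPM in PEox and 31.3 ± 0.85 CPM in vehicle (-0.44 ± 0.17, adjusted p = 0.0724). The same settings, and the filter of 5 CPM in 3 libraries, called Runx2 lower. It is named for the promoter run above and was chosen after its values were seen.

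Nfil3, a basic leucine zipper repressor that acts at the start of the innate lymphoid lineage in mice, was at 89.0, 84.0 and 93.8 CPM in PEox libraries, against 104, 109 and 107 CPM in vehicle libraries. No PEox library reached the lowest vehicle library. The means were 89.0 ± 4.91 CPM in PEox and 107 ± 2.41 CPM in vehicle (SD, n = 3 each), which is a log2 fold change of -0.26 ± 0.06 with an adjusted p of 0.0115. The call ended with library size scaling (-0.13, adjusted p = 0.166), without vehicle library 2 (adjusted p = 0.0575) and after each library's trend with transcript length and GC content was removed (0.00, adjusted p = 0.974). The PAR bZIP factors, circadian activators that bind similar DNA sites, gave Dbp at 37.6 ± 0.87 CPM in PEox and 46.8 ± 5.21 CPM in vehicle (-0.32 ± 0.10, adjusted p = 0.0374), a call that several settings ended. Neither Hlf (-0.22 ± 0.11, adjusted p = 0.174) nor Tef (0.31 ± 0.14, adjusted p = 0.136) passed; Tef was called higher with library size scaling and without PEox library 2. In all, 0 of these 4 genes were higher and 2 lower, against 1 higher and 0 lower with library size scaling.

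Maf encodes c-MAF, a large Maf factor that restrains inflammatory programmes in mouse intestinal lymphocytes. Maf was at 108, 105 and 107 CPM in PEox libraries, against 124, 114 and 114 CPM in vehicle libraries. The ranges did not overlap, but the means, 106 ± 1.35 CPM in PEox and 118 ± 5.52 CPM in vehicle (SD, n = 3 each), gave a log2 fold change of -0.14 ± 0.06 that did not pass (adjusted p = 0.0874). Removal of the length and GC trend gave -0.25 and an adjusted p of 0.0204.

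Other Maf family genes moved in both directions. The small Maf proteins Mafg and Mafk, which lack an activation domain and pair with other bZIP factors, rose. Mafg was at 125 ± 7.69 CPM in PEox and 64.7 ± 3.06 CPM in vehicle (0.96 ± 0.07, adjusted p = 2.76e-05), and Mafk was at 161 ± 19.3 CPM in PEox and 88.3 ± 4.78 CPM in vehicle (0.86 ± 0.09, adjusted p = 0.000195). The third small Maf gene, Maff, was lower, at 1.67 CPM in PEox and 5.15 CPM in vehicle (-1.63 ± 0.31, adjusted p = 0.0041).

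Zbtb16 encodes PLZF, a BTB zinc finger factor that marks innate lymphoid precursors and is low in mature ILC3s. It was at 6.05, 9.44 and 12.1 CPM in PEox libraries, against 7.08, 10.8 and 7.44 CPM in vehicle libraries. The PEox range enclosed the vehicle range. The means were 9.21 ± 3.05 CPM in PEox and 8.43 ± 2.02 CPM in vehicle (SD, n = 3 each), with a log2 fold change of 0.13 ± 0.28 and an adjusted p of 0.777. The counts were 356 to 734 per library, for which counting alone gives a CV of at most 5.30%, which is less than the spread between libraries.

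Of 13 tested BTB zinc finger factors and Cul3, 4 were higher and 0 lower (18.3% and 18.8% over all tested genes), with a median of 0.19. With the length and GC trend removed, 1 was lower. Zbtb20, a repressor active in plasma cells and many tissues, rose to 119 ± 5.47 CPM in PEox, against 48.3 ± 8.28 CPM in vehicle (1.31 ± 0.12, adjusted p = 8.87e-05). Cul3, the ubiquitin ligase scaffold that binds PLZF in mouse innate-like T cells, rose to 104 ± 4.95 CPM in PEox, against 59.0 ± 6.09 CPM in vehicle (0.82 ± 0.09, adjusted p = 0.000198). Zbtb1, needed for lymphoid development in mice, was higher as well (0.68 ± 0.15, adjusted p = 0.00701). The low gene Bcl6, at 6.68 CPM in PEox and 3.57 CPM in vehicle, passed (0.90 ± 0.25, adjusted p = 0.0217) but not without PEox library 3 or any 1 vehicle library. Zbtb32 did not pass (-1.04, adjusted p = 0.0782), but it was called lower by DESeq2, by limma-voom, with the filter of 5 CPM in 3 libraries and without PEox library 3.

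**Figure D4:**
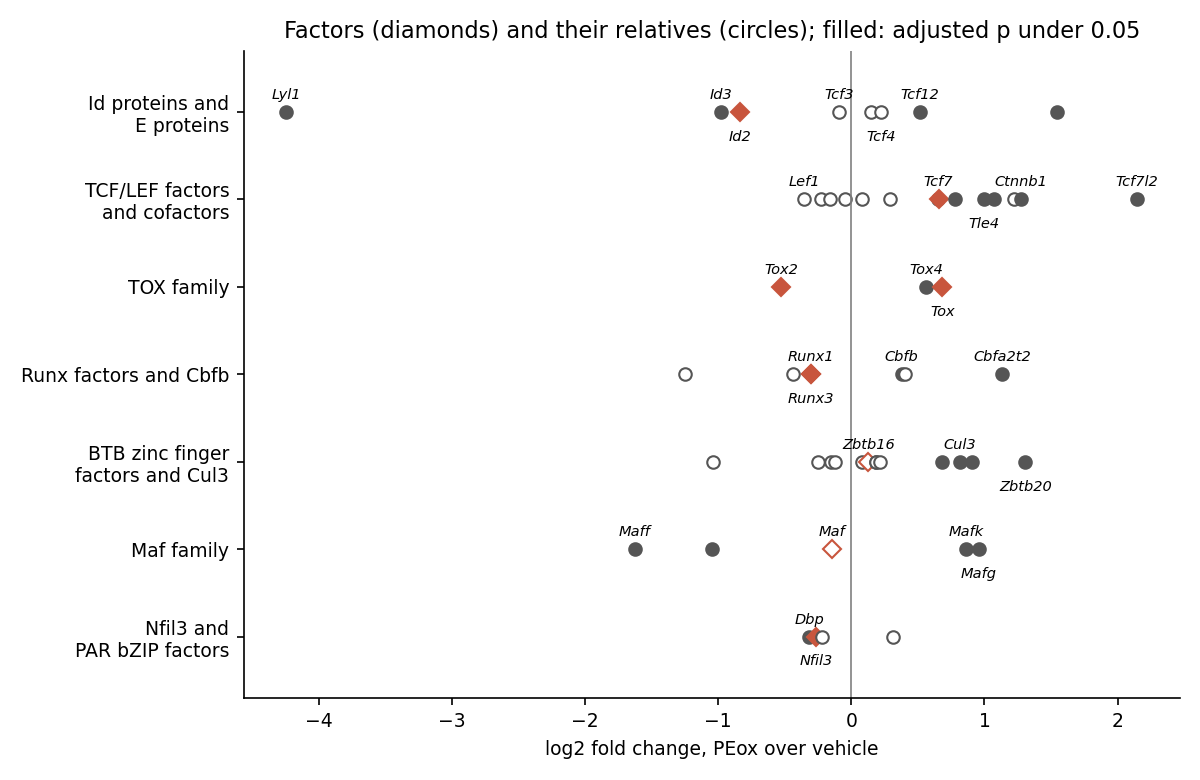
Log2 fold change, PEox over vehicle, of the 9 factors (diamonds) and their tested relatives and partners (circles) by family; filled symbols have an adjusted p under 0.05. The TCF/LEF row has 7 filled symbols, all to the right of 0, Tox2 lies left of Tox and Tox4, and Lyl1 is the point at -4.24.

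Levels of different genes were compared per kilobase of the longest transcript, as mean CPM per kilobase over 3 libraries. Id2 led, at 855 ± 25.4 in PEox and 1526 ± 80.8 in vehicle. Tcf7 came next at 126 ± 5.67 in PEox and 80.3 ± 1.35 in vehicle, followed by Runx3 at 55.6 ± 6.47 in PEox and 68.7 ± 1.93 in vehicle. These top places were the same in both groups, and the library ranges of neighbours did not overlap.

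In the middle of the order the groups differed. Tox was at 45.2 ± 2.26 CPM per kilobase in PEox and 28.1 ± 1.44 in vehicle, Nfil3 at 43.9 ± 2.42 in PEox and 52.7 ± 1.19 in vehicle, and Tox2 at 27.0 ± 2.28 in PEox and 38.9 ± 1.69 in vehicle. The order was thus Tox, Nfil3, Tox2 in PEox, where the ranges of Tox and Nfil3 overlapped, and Nfil3, Tox2, Tox in vehicle, where no ranges did. Maf (16.7 ± 0.21 in PEox and 18.5 ± 0.87 in vehicle), Runx1 (13.9 ± 0.56 in PEox and 17.2 ± 0.71 in vehicle) and Zbtb16 (1.80 ± 0.60 in PEox and 1.65 ± 0.40 in vehicle) closed the order in both groups. The places below Runx3 depend on the transcript chosen. With the median coding transcript, the order after Runx3 was Tox2, Tox, Nfil3, Runx1, Maf, Zbtb16 in PEox, where the neighbours among the first 4 of these overlapped. In vehicle it was Tox2, Nfil3, Runx1, Tox, Maf, Zbtb16, where Nfil3 overlapped with Runx1, and higher up Tcf7 overlapped with Runx3.

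**Figure D5:**
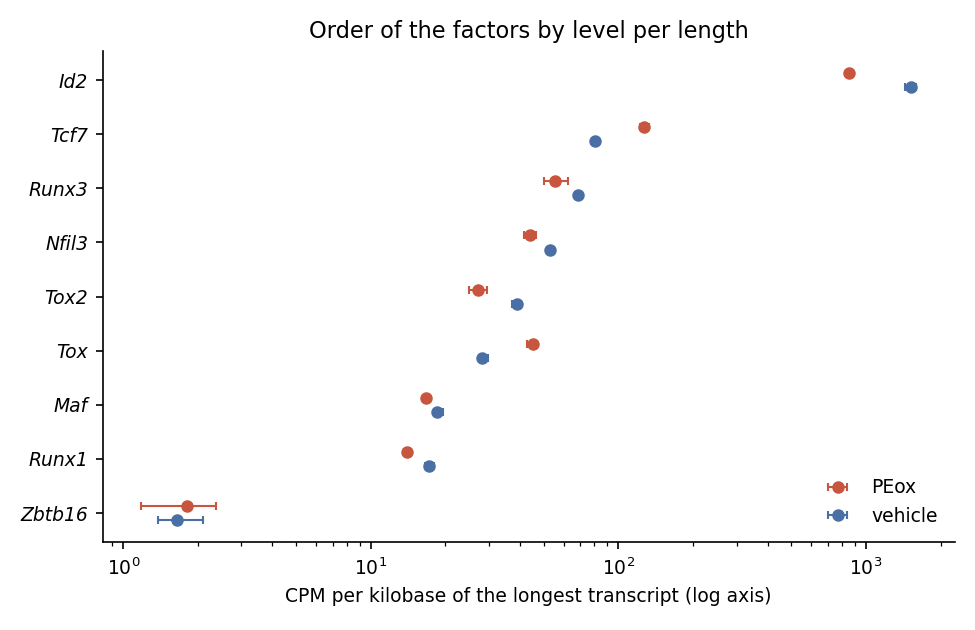
CPM per kilobase of the longest transcript for the 9 factors on a log axis, PEox above vehicle for each gene; points are means and bars span the 3 libraries. Id2 is highest (855 in PEox, 1526 in vehicle), Zbtb16 lowest (1.80 in PEox, 1.65 in vehicle), and Tox lies above Tox2 in PEox and below it in vehicle.

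Likeness of pattern was measured among 84 genes of all factor lists, as the root mean square difference of log2 CPM over the 6 libraries after each gene was centred on its own mean. This is a description and carries no test, since all the genes share the libraries and the group difference. Tcf7 was most like Tox (0.0882) and Tox most like Tox4 (0.0831). Id2 was most like Batf3 (0.116), Tox2 most like Ets1 (0.0872), Runx1 most like Hlf (0.0648), Maf most like Ikzf2 (0.0573) and Zbtb16 most like Hhex (0.257). The distance of Nfil3 from its nearest gene, Runx3, was 0.0630.

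Of 31 other tested factors of innate lymphoid lineages, 4 were higher and 8 lower, with a median of -0.12. Over all tested genes 37.1% were called, 18.3% higher and 18.8% lower. Library size scaling gave 7 of the 31 higher and 6 lower, and removal of the length and GC trend gave 3 higher and 8 lower. Irf8, an interferon regulatory factor, fell to 114 ± 10.9 CPM in PEox, against 188 ± 9.82 CPM in vehicle (-0.73 ± 0.08, adjusted p = 0.000206). Ets1, which lymphocyte development needs, fell to 310.1 ± 31.3 CPM in PEox, against 447 ± 28.8 CPM in vehicle (-0.53 ± 0.08, adjusted p = 0.00107). Batf3 (-0.66 ± 0.06, adjusted p = 0.000119) and Batf (-0.57 ± 0.08, adjusted p = 0.000742), AP-1 factors, were lower, but neither passed with the length and GC trend removed (-0.18 and -0.05).

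Of 19 tested genes described as targets of the 9 factors in mouse lymphocytes, 1 was higher and 9 were lower. Their median log2 fold change was -0.40, and library size scaling gave 2 higher and 7 lower. The shares among all tested genes were 18.3% higher and 18.8% lower. The list does not separate genes that a factor activates from those it represses, and it names no expected direction. Whether the activity of any factor changed was not tested. Il22, the cytokine by which ILC3s act on the epithelium, fell to 2513 ± 59.4 CPM in PEox, against 6724 ± 63.5 CPM in vehicle (-1.42 ± 0.03, adjusted p = 3.79e-07). Ccr6, the chemokine receptor of the lymphoid tissue inducer subset, fell to 147 ± 8.33 CPM in PEox, against 356 ± 10.7 CPM in vehicle (-1.27 ± 0.06, adjusted p = 2.59e-06). The costimulatory receptor Icos fell to 283 ± 22.4 CPM in PEox, against 438 ± 13.3 CPM in vehicle (-0.63 ± 0.06, adjusted p = 0.000126), and Id3, given above, is also on this list.

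Markers of other cells differed between the groups too. The shares to set beside the counts of called markers are 18.3% higher and 18.8% lower over all tested genes. T cells share Tcf7, Tox, Runx3 and Maf with ILC3s. Of 17 T cell markers, 1 was higher and 9 lower, with sums of 912 to 978 CPM in PEox libraries and 1257 to 1272 CPM in vehicle libraries. Trbc2 and Trbc1 made up most of these sums, whereas Cd3e was at 2.61 CPM in PEox and 7.79 CPM in vehicle. Cd8a was at 0 in all PEox libraries and averaged only 0.99 CPM in vehicle. Of 12 ILC1 and natural killer cell markers, 10 were tested, with 0 higher and 7 lower. The 12 summed to 1045 to 1077 CPM in PEox libraries and 1410 to 1489 CPM in vehicle libraries. Klra4, Klra7 and Klra8 were at 0 in PEox libraries. Of 11 ILC2 markers, 10 were tested, with 1 higher and 3 lower. Their sums were 159 to 166 CPM in PEox libraries and 201 to 222 CPM in vehicle libraries, with Il13 at 0 in PEox libraries.

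Of 12 B and plasma cell markers, 0 were higher and 11 lower (18.3% and 18.8% over all tested genes, as for every list here). They summed to 230.4 to 235 CPM in PEox libraries and 671 to 679 CPM in vehicle libraries. Macrophage and monocyte markers (0 higher and 7 lower of 13) summed to 105 to 128 CPM in PEox libraries and 223 to 239 CPM in vehicle libraries. Dendritic cell markers (0 higher and 4 lower of 7 tested, with 9 listed) summed to 112 to 119.6 CPM in PEox libraries and 223 to 236 CPM in vehicle libraries. Siglech was at 0 in PEox and Clec9a at 0 in both groups. Mast cell and basophil markers (0 and 7 of 10) summed to 33.9 to 40.9 CPM in PEox libraries and 179.8 to 191 CPM in vehicle libraries, with Mcpt8 and Prss34 at 0 in PEox. Erythroid markers ran the other way (5 higher and 0 lower of 8 tested), with sums of 5121 to 5808 CPM in PEox libraries and 2755 to 2802 CPM in vehicle libraries. So did markers of stroma and endothelium (4 higher and 1 lower of 8 tested, with 10 listed). These summed to 368 to 396 CPM in PEox libraries and 246 to 268 CPM in vehicle libraries, with Cdh5 and Kdr at 0 in PEox. A marker at 0 is not shown to mean loss of its cell type, and the PEox libraries held fewer counts. The part of these other cells in the changes of the 9 factors was not tested.

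The labels do not state whether the libraries keep strand, and 5 of the 9 factors have an antisense gene over them in GENCODE M21: Tcf7, Tox, Runx1, Runx3 and Maf. Those antisense genes were at most at 2.98 CPM in any library, the highest being Gm16224 over Runx3. Tcf7 is also overlapped on its own strand by a long noncoding RNA gene, Gm26551, for which no level is available here.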

How the data were processed

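Per the labels' protocols, a company made and sequenced the libraries as paired 150-base reads, which were cleaned with fastp and aligned with HISAT2 2.0.5. The edgeR package (3.22.5) is listed in the submitters' processing notes. Which counter, build and annotation were used is not given in the sources used here. What the authors deposited are raw counts per gene, whole numbers without normalization. Groups came from the titles, and 0 sample columns were left unused.

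Counts were tested with edgeR 4.0.16 (R 4.3.3): filterByExpr, TMM scaling, the robust quasi-likelihood F test of PEox against vehicle over all 6 libraries, and Benjamini-Hochberg adjustment over 18253 genes, with a threshold of 0.05. Ratios within a library used a prior count of 0.5 and exact two-sided permutation tests. Alternatives were other scalings and filters, a replicate block, leaving out each library, DESeq2 1.42.0, limma-voom (limma 3.58.1), and removal of each library's loess trend (span 0.5) on GENCODE M21 transcript length and GC content. The fit was tested on simulated counts with some genes changed by 1 or 2 on the log2 scale. It recovered 53.3% of the genes changed by 1 and 76.8% of those changed by 2. It called 3 of 17307 unchanged genes. Changes below 1 were not simulated, so a gene that was not called is not shown to be unchanged.

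The members and lists were chosen with earlier results of these data known. Named were the 9 factors, up to 5 genes with the smallest p-values per list, the E proteins, Cbfb, genes used in a ratio, the nearest gene in pattern, and markers at 0 or most abundant; some genes this rule takes are not reported here. Replicates of a group differed by more than sampling noise (chi-square per gene 15.6 to 35.4). Counts ranged from 356 to 197195 per factor and library, and the CV from counting alone is 5.30% at the lowest of these counts.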

Additional observations from a re-analysis of the deposited data

How the results depend on the processing

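Over 14 alternatives each, Id2 (-0.88 to -0.62), Tcf7 (0.62 to 0.84), Tox (0.66 to 0.82) and Tox2 (-0.59 to -0.39) kept their direction and passed the threshold in 14 of 14; Runx1 passed in 13, Nfil3 in 11, Runx3 in 9, Maf in 1 and Zbtb16 in 0. Library size scaling ended the calls of Runx1 (-0.17, adjusted p = 0.0678), Runx3 (-0.17, adjusted p = 0.155) and Nfil3 (-0.13, adjusted p = 0.166); it moved the median of all tested genes to 0.14, and relative to that median they were at -0.31, -0.30 and -0.26. Removing the length and GC trend turned the sign of Nfil3 (0.00389) and brought Maf to a call (-0.25). It moved the median of all tested genes to 0.13, and relative to that median Nfil3 was at -0.13 and Maf at -0.38. Under these 2 settings 61.9% and 60.03% of called genes were higher in PEox, against 49.3% as reported; the causes were not tested. With 1 library left out, Runx3 ranged over -0.40 to -0.24, Nfil3 over -0.30 to -0.23, Zbtb16 over -0.12 (without PEox library 3) to 0.35, and the log2 Runx3 to Runx1 ratio over -0.11 to 0.10. Calls numbered 2530 to 3113 higher and 2738 to 3480 lower.

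Replicate numbers are not shown to pair the libraries: deviations of same-numbered libraries correlated at 0.00541, 0.0135 and -0.00583. With the replicate block, 3018 genes were higher and 3141 lower, Id2 was at -0.83, and no call among the 9 changed.

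With the median coding transcript length, CPM per kilobase became 1326 in PEox and 2365 in vehicle for Id2, 148 in PEox and 94.2 in vehicle for Tcf7, 47.5 in PEox and 68.4 in vehicle for Tox2, 41.2 in PEox and 50.8 in vehicle for Runx1, 75.3 in PEox and 93.0 in vehicle for Runx3, 2.42 in PEox and 2.21 in vehicle for Zbtb16, and 22.2 in PEox and 24.5 in vehicle for Maf.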
